A study of Homo sapiens with 6 samples.

Results

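The 45 genes described here encode the translation initiation factors and the proteins that control initiation factor eIF2. They were taken by symbol from the 60643 rows of the deposited table, where each of the 45 symbols occurs once. The list holds the eIF1 to eIF6 factors, the eIF2 kinases, the regulatory subunits of the eIF2 phosphatase, the 4E-BPs that restrain cap binding, and the kinase EEF2K. The cells were HCT116, an established human colorectal cancer line, carrying a short hairpin RNA (shRNA) that doxycycline switches on and that targets CAPG, which encodes an actin filament capping protein. The 3 +Dox libraries came from cells treated for 3 days with 100 ng/µl doxycycline (unit as labelled), and are labelled CAPG knockdown. The 3 -Dox libraries came from cells with the same shRNA and no doxycycline, and their labels give the genotype as WT. The tissue is labelled Rectum and the cell type human colon cancer cell. The labels do not say whether the line is 1 clone or whether replicates were separate cultures, and the p-values therefore cover only library-to-library spread, which may be technical. Cells that received the drug but lack the hairpin were not analysed here, so effects of doxycycline and of the shRNA cannot be told apart. All libraries are labelled with the same hairpin, so loss of CAPG and other effects of that hairpin cannot be told apart either.

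Translation of most messenger RNAs (mRNAs) begins when eIF2, loaded with GTP and the initiator transfer RNA, joins the small ribosomal subunit together with eIF1, eIF1A, eIF3 and eIF5, while the eIF4 factors bind the mRNA cap and unwind the leader. After each round eIF2B recharges eIF2 with GTP. Stress-activated kinases phosphorylate the alpha subunit of eIF2, which then blocks eIF2B and lowers initiation in general, while a few mRNAs with upstream open reading frames, ATF4 among them, are translated more. A phosphatase guided by PPP1R15A or PPP1R15B removes the phosphate. These steps act on proteins, and the values below are RNA levels only.

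Upstream sequences are shown for the member with the largest rise, its stress-induced counterpart, the member that fell, and a cap-binding scaffold gene with repeated motifs. They are the 250 bases before the RefSeq start (GRCh38.p14), 5′ to 3′ on the gene's strand. Capitals mark TGATGNAA, the core of an element bound by C/EBP and ATF factors, or CACGTG, the E-box, each searched on both strands. PPP1R15B lies on the minus strand with its window at chr1:204411818-204412067, PPP1R15A on the plus strand at chr19:48872171-48872420, EIF4EBP2 on the plus strand at chr10:70403895-70404144, and EIF4G1 on the plus strand at chr3:184314356-184314605, the window of 1 of its 3 annotated starts.
PPP1R15B: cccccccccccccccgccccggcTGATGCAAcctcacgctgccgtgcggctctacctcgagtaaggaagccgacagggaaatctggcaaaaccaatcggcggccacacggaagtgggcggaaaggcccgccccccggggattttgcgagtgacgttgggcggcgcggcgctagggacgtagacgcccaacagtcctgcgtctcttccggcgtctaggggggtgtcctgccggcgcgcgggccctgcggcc
PPP1R15A: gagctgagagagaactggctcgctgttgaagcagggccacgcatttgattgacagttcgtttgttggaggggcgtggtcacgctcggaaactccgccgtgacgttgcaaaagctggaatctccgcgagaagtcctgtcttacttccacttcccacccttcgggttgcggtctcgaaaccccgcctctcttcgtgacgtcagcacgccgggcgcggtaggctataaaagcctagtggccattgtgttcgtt
EIF4EBP2: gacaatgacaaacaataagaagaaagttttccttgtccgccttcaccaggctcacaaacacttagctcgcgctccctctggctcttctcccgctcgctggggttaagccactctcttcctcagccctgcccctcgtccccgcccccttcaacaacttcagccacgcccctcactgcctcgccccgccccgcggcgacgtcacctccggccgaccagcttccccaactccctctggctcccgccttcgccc
EIF4G1: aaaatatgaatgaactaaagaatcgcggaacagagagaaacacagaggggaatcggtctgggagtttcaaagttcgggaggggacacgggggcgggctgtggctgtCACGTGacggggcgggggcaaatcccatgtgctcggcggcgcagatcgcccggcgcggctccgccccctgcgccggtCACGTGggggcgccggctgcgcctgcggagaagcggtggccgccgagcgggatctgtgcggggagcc
RefSeq windows matched 37 of the 45 genes (50 windows). TGATGNAA occurred in 1 of the 50 windows, that of PPP1R15B, as TGATGCAA starting 227 bases before the start, against 3.14% of all 35116 windows. The E-box occurred in windows of 8 genes (EEF2K, EIF2B3, EIF3F, EIF3K, EIF4B, EIF4E, EIF4G1 and EIF4H), which is 16.0% of the members' windows against 6.34% of all windows. EIF4E and EIF4G1 each held 2 E-boxes, and no member window held both motifs. A match describes these letters only, and of these 8 genes EIF4G1 was the 1 whose level passed the test below.

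Levels are in FPKM, a fragment count divided by gene length and by sequencing depth, as deposited. Tests were made with limma on log2(FPKM + 1) over 14475 genes that reached 1 FPKM in at least 3 libraries, with Benjamini-Hochberg adjustment over all of them and a threshold of 0.05. Log2 changes are +Dox minus -Dox and understate the change of low genes. The estimated depth was 21440000 to 21920000 fragments in the +Dox libraries, against 17000000 in -Dox replicate 3 and 21840000 and 21880000 in the other -Dox libraries. FPKM values summed to 586911 in +Dox replicate 3 and to between 521832 and 536037 in the other 5 libraries. CAPG was at 15.3% of its -Dox level in +Dox libraries (8.73 ± 1.08 FPKM against 57.2 ± 3.75 FPKM, SD, n = 3 each). All 8 epithelial markers were measured, with sums of 2007 to 2367 FPKM in +Dox libraries and 1804 to 2041 FPKM in -Dox libraries. Fibroblast, leukocyte and endothelial markers summed to at most 9.80, 2.70 and 0.574 FPKM per +Dox library, against 11.3, 5.06 and 0.246 FPKM per -Dox library. Of these 15 markers 13 averaged under 0.5 FPKM, the exceptions being COL1A1 and CD68. CD68 was lower in +Dox libraries (2.01 ± 0.380 FPKM, against 3.94 ± 0.476 FPKM in -Dox libraries, limma adjusted p = 0.0167). EPCAM was higher (241 ± 20.0 FPKM in +Dox and 190 ± 8.12 FPKM in -Dox libraries, SD, n = 3 each, adjusted p = 0.0401). In 4 of the 8 epithelial markers all +Dox libraries lay above all -Dox libraries, against 17% of all tested genes. The part of these marker differences in the results below was not tested.

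All 45 genes passed the filter, and 6 of them passed the test, where 8.46% of all tested genes passed. PPP1R15B, EIF4E2, EIF4G1, EIF1 and EIF4G2 rose and EIF4EBP2 fell. The 5 risen genes are 11.1% of the 45, where 3.69% of all tested genes rose, and the 1 fallen gene is 2.22%, where 4.77% of all tested genes fell. With 45 genes, these shares rest on few calls. Genes of low level are also more common among all tested genes than among the 45. With a filter of 5 FPKM, which all 45 pass, 7 of the 45 and 633 of 10085 genes rose, and 2 and 639 fell. EIF2AK3 and EEF2K met that filter only with the -Dox libraries, where they were higher. EIF2AK3 is 1 of the 2 that fell there, so its fall is no support. In 18 of the 45 the +Dox libraries all lay above the -Dox libraries, against 17% of all tested genes, and in 7 they all lay below, against 17.5%. Together these 25 genes stand against 34.5% of all tested genes. At an unadjusted p under 0.05, 17 of the 45 were higher, against 13.6% of all tested genes, and 7 were lower, against 14.3%. The median log2 change of the 45 was 0.10, and that of all tested genes -0.003. In bulk RNA, fewer cells of a kind and less RNA per cell cannot be told apart. +Dox replicate 3, whose FPKM total stood apart, was the highest +Dox library for 33 of the 45 genes (73.3%), against 46.4% of all tested genes. Without it 5 genes were called higher and 2 lower. With libraries scaled to equal totals, 6 were called higher and 2 lower. The split of calls over all tested genes, 43.6% of them higher, became 55% higher after correction for length and GC content, with 14 of the 45 genes higher and 3 lower. With no filter on low values PPP1R15B alone of the 45 was called.

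**Figure D1:**
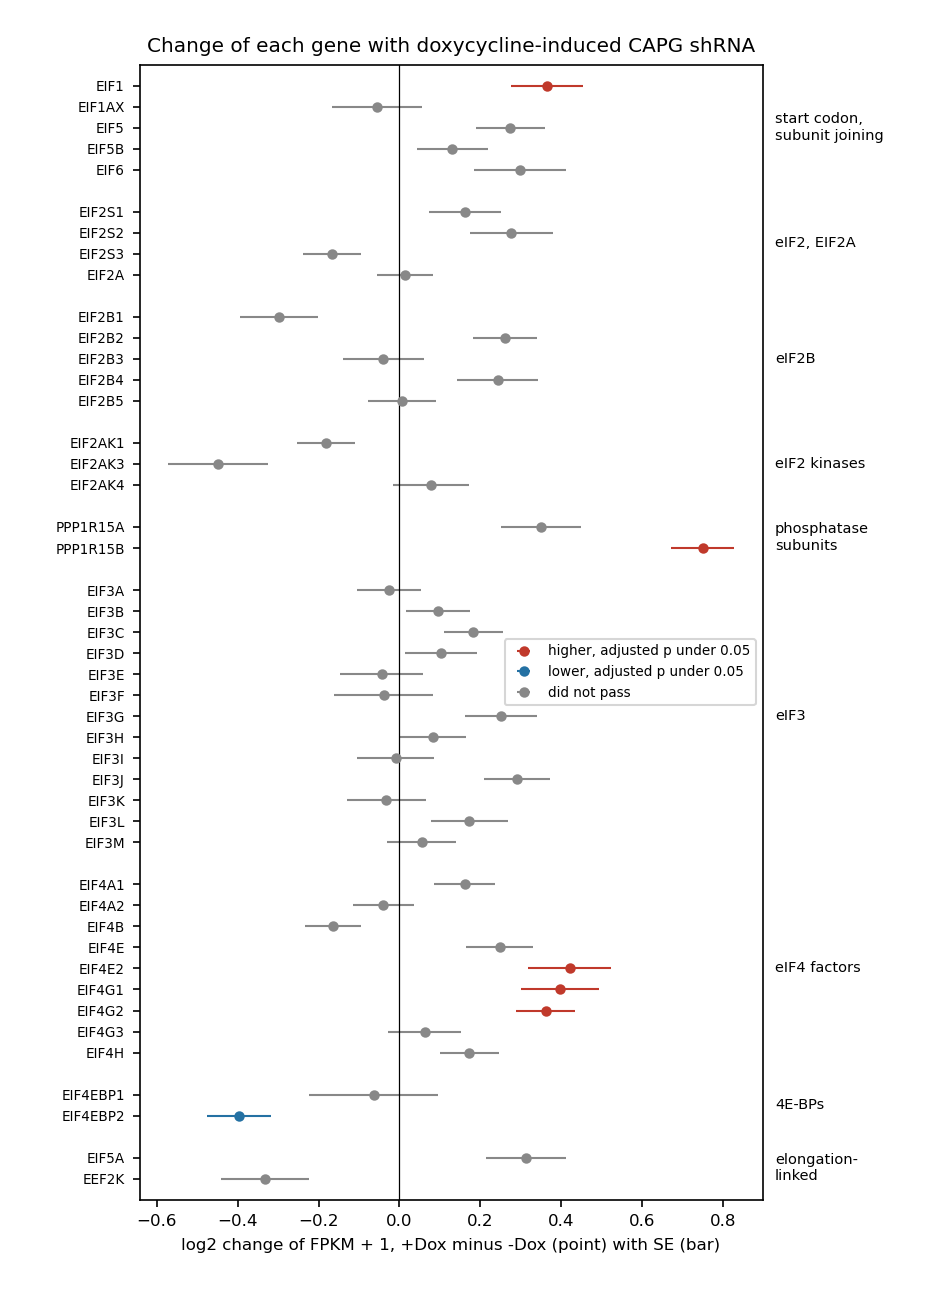
Log2 change of FPKM + 1 (+Dox minus -Dox) for each of the 45 genes, grouped by role, with points for the limma estimate and bars for its SE. The 5 red points are genes that rose and the 1 blue point is EIF4EBP2, which fell. PPP1R15B stands farthest to the right at 0.75.

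The clearest change was that of PPP1R15B, which encodes the constitutive targeting subunit of the eIF2 phosphatase (also called CReP). Its level was 61.5, 60.3 and 56.1 FPKM in +Dox replicates 1, 2 and 3, against 33.7, 34.5 and 36.4 FPKM in -Dox replicates 1, 2 and 3. Every +Dox library lay well above every -Dox library, with a gap between the groups far wider than the spread within either. The mean was 1.70 times higher (log2 change 0.75, SE 0.08, limma adjusted p = 0.00228). It ranked 18 of 14475 tested genes by p-value, and 48 genes that rose had a larger log2 change. Leaving out any 1 of the 6 libraries kept the call, and the adjusted p then lay between 0.00408 and 0.0153. PPP1R15B (ENSG00000158615) lies on chromosome 1 at 204403381 to 204411817, GRCh38, on the minus strand.

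PPP1R15A encodes the stress-induced targeting subunit, GADD34, and is itself a known target of ATF4. It was at 22.9, 22.3 and 26.9 FPKM in +Dox replicates 1, 2 and 3, against 19.7, 18.9 and 17.3 FPKM in -Dox replicates 1, 2 and 3. The groups were apart, and the difference did not pass the test (log2 0.35, SE 0.10, limma adjusted p = 0.0568). It passed with a filter of 5 FPKM (0.0433), with median-ratio scaling (0.0448) and with length and GC correction (0.0106). It did not pass with no filter on low values (0.164) or with plain empirical Bayes (0.0795). Of the 6 fits without 1 library, 0 made the call (limma adjusted p up to 0.157). The ratio of PPP1R15A to PPP1R15B was 0.373, 0.370 and 0.480 in +Dox replicates 1, 2 and 3, and 0.583, 0.548 and 0.475 in -Dox replicates 1, 2 and 3. These ranges overlapped through replicate 3 of both groups, and a two-sided exact permutation test gave p = 0.2 (0.3 after adjustment over 5 ratios of related genes). The smallest p that 3 against 3 libraries allow is 0.1.

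**Figure D2:**
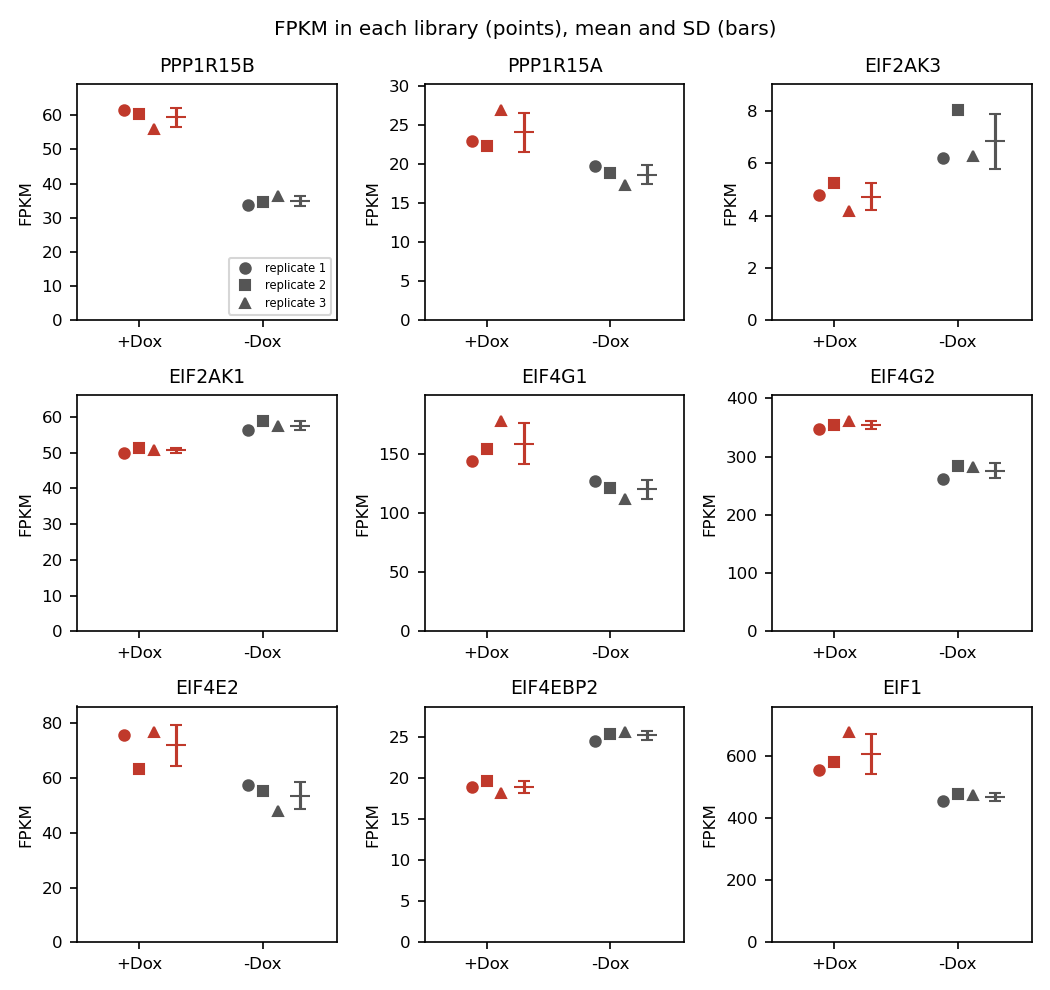
FPKM in each library for 9 genes, +Dox left and -Dox right in each panel, with a marker shape for each replicate, and the mean and SD (n = 3) beside the points. The panels for PPP1R15B and EIF4EBP2 show tight groups far apart, and that for EIF4E2 a wider spread in both groups.

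None of the 3 eIF2 kinases measured here passed the test (0 of 3 by limma, while EIF2AK3 and EIF2AK1, both lower, had unadjusted p = 0.00524 and 0.029). EIF2AK3 encodes PERK, the kinase of the endoplasmic reticulum, and was the lowest of them. It was at 4.77, 5.22 and 4.18 FPKM in +Dox replicates 1, 2 and 3, against 6.21, 8.03 and 6.26 FPKM in -Dox replicates 1, 2 and 3. The +Dox libraries all lay below the -Dox libraries (log2 -0.45, SE 0.12, limma adjusted p = 0.0557). The difference passed with length and GC correction (0.0377). It also passed with a filter of 5 FPKM (0.0409), but EIF2AK3 met that filter only with the -Dox libraries, so this pass is no support. The call was made in 0 of the 6 fits without 1 library (limma adjusted p up to 0.198). EIF2AK1 encodes HRI, the haem-regulated kinase that also relays mitochondrial stress, and was the most abundant. Its values were 49.9, 51.3 and 50.7 FPKM in +Dox replicates 1, 2 and 3, against 56.4, 58.9 and 57.4 FPKM in -Dox replicates 1, 2 and 3. Those groups were separate as well, by a smaller step (log2 -0.18, SE 0.07, adjusted p = 0.131). EIF2AK4 encodes GCN2, which senses uncharged transfer RNA, and its groups overlapped. It was at 15.02, 15.7 and 18.2 FPKM in +Dox replicates 1, 2 and 3, against 15.1, 15.4 and 15.7 FPKM in -Dox replicates 1, 2 and 3 (adjusted p = 0.63). The remaining eIF2 kinase gene, EIF2AK2, which encodes PKR and is not among the 45, averaged 17.6 ± 3.12 FPKM in +Dox and 15.04 ± 1.06 FPKM in -Dox libraries (SD, n = 3 each, limma adjusted p = 0.319).

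The genes of eIF2 itself did not move as 1 block. EIF2S1, the alpha subunit that the kinases phosphorylate, was at 204, 191 and 227 FPKM in +Dox replicates 1, 2 and 3, against 173, 192 and 190 FPKM in -Dox replicates 1, 2 and 3. These groups overlapped at +Dox replicate 2 (log2 0.16, limma adjusted p = 0.273). EIF2S2, the beta subunit, was at 45.6, 44.7 and 55.8 FPKM in +Dox replicates 1, 2 and 3, against 37.9, 38.8 and 42.9 FPKM in -Dox replicates 1, 2 and 3. EIF2S3, the gamma subunit that holds GTP and the transfer RNA, was at 107, 105 and 103 FPKM in +Dox replicates 1, 2 and 3, against 115, 123 and 116 FPKM in -Dox replicates 1, 2 and 3. The beta subunit was thus higher and the gamma subunit lower in every +Dox library than in any -Dox library, and neither passed the test (log2 0.28 and -0.17, limma adjusted p = 0.114 and 0.165). EIF2A, a separate protein that can also deliver an initiator transfer RNA, had nearly equal means of 95.2 ± 2.62 FPKM in +Dox and 94.2 ± 1.46 FPKM in -Dox libraries (SD, n = 3 each). Its log2 estimate was 0.01, and -0.04 with equal totals.

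Among the 5 subunits of eIF2B, the exchange factor that recharges eIF2, the estimates ran from -0.30 to 0.26 on the log2 scale. By limma 0 passed the test, where 8.46% of all tested genes passed, so a count of 0 among 5 lies near that share. At an unadjusted p under 0.05, 2 (40.0%) were higher, against 13.6% of all tested genes, and 1 (20.0%) was lower, against 14.3%. With 5 genes, these shares rest on few calls. EIF2B1 encodes the regulatory alpha subunit and was at 13.1, 14.3 and 16.3 FPKM in +Dox replicates 1, 2 and 3, against 18.3, 18.5 and 17.4 FPKM in -Dox replicates 1, 2 and 3. EIF2B2, the beta subunit, was at 44.4, 45.3 and 48.7 FPKM in +Dox replicates 1, 2 and 3, against 39.6, 38.9 and 36.3 FPKM in -Dox replicates 1, 2 and 3. In both genes the groups were separate, on opposite sides (limma adjusted p = 0.0866 and 0.0696). EIF2B1 overlaps DDX55 (means of 19.2 FPKM in +Dox and 23.5 FPKM in -Dox libraries) and GTF2H3 (22.2 and 22.9 FPKM). The part of their reads in the EIF2B1 difference was not tested. The delta subunit gene EIF2B4 averaged 21.1 ± 2.05 FPKM in +Dox and 17.7 ± 1.52 FPKM in -Dox libraries (adjusted p = 0.15). The gamma subunit gene EIF2B3 and the gene of the catalytic epsilon subunit, EIF2B5, had log2 estimates of -0.04 and 0.01, and that of EIF2B5 was -0.05 with equal totals. The subunits differed widely in level. EIF2B2 was the highest and EIF2B3 the lowest, 6.13-fold apart in +Dox means and 4.94-fold apart in -Dox means, although the assembled complex holds its subunits in equal numbers.

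eIF3 is the large scaffold that recruits the small ribosomal subunit to mRNA. Of its 13 subunit genes 0 passed the test by limma, where 8.46% of all tested genes passed, so a count of 0 among 13 lies near that share. Before adjustment, at p under 0.05, 3 (23.1%) were higher, against 13.6% of all tested genes, and 0 were lower, against 14.3%. In 10 of the 13 the groups overlapped, and in 3 (23.1%) the +Dox libraries all lay above the -Dox libraries, against 17% of all tested genes. The median log2 change was 0.08. EIF3J encodes a loosely attached subunit and was the lowest of the 13 in level, at 40.4, 39.6 and 43.1 FPKM in +Dox replicates 1, 2 and 3, against 33.6, 35.5 and 31.2 FPKM in -Dox replicates 1, 2 and 3. EIF3G, an RNA-binding subunit, was at 93.8, 97.7 and 114 FPKM in +Dox replicates 1, 2 and 3, against 88.2, 83.0 and 83.8 FPKM in -Dox replicates 1, 2 and 3. Both had +Dox libraries above all -Dox libraries without passing the test (log2 0.29 and 0.25, limma adjusted p = 0.0592 and 0.104). EIF3C was the remaining subunit gene with separate groups (log2 0.18, adjusted p = 0.144), and it shares near-identical sequence with EIF3CL, which was at 73.8% of its level, so their reads can be exchanged. The other 10 subunit genes had log2 estimates between -0.04 and 0.17. EIF3H had the highest level, at 504 ± 31.1 FPKM in +Dox and 476 ± 28.4 FPKM in -Dox libraries (SD, n = 3 each).

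**Figure D3:**
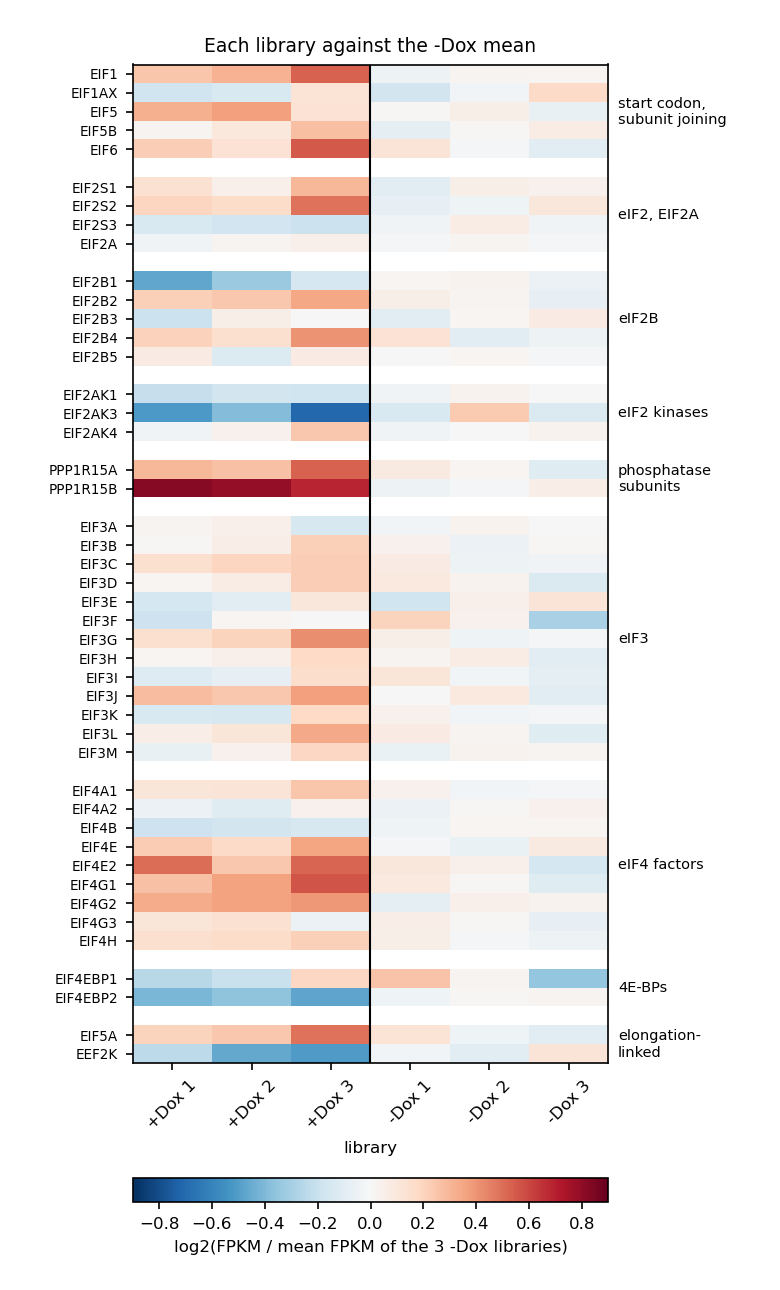
Log2 ratio of each library's FPKM to the mean of the 3 -Dox libraries for the 45 genes, +Dox columns left of the line and -Dox columns right of it. PPP1R15B is deep red in all 3 +Dox columns, EIF2AK3 and EIF4EBP2 are blue in all 3, and many eIF3 rows are pale. The +Dox replicate 3 column is redder than its neighbours, as in 33 of the 45 genes it held the highest +Dox value.

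The eIF4 group held 3 of the 5 genes that rose, and 0 of its 9 genes fell, against shares over all tested genes of 3.69% higher and 4.77% lower. EIF4G1 encodes the scaffold that joins the cap-binding protein, the helicase and eIF3. It was at 145, 155 and 179 FPKM in +Dox replicates 1, 2 and 3, against 128, 121 and 112 FPKM in -Dox replicates 1, 2 and 3. All +Dox libraries were above all -Dox libraries, and replicate 3 held both the highest +Dox and the lowest -Dox value (log2 0.40, SE 0.10, limma adjusted p = 0.0371). EIF4G2 encodes DAP5, a related scaffold that lacks the site for the cap-binding protein eIF4E. It was at 348, 355 and 362 FPKM in +Dox replicates 1, 2 and 3, against 261, 284 and 283 FPKM in -Dox replicates 1, 2 and 3 (log2 0.36, SE 0.07, adjusted p = 0.0219). Its groups were tight and well apart.

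EIF4E2 encodes 4EHP, a cap-binding protein that competes with eIF4E and represses selected mRNAs. It was at 75.7, 63.4 and 76.9 FPKM in +Dox replicates 1, 2 and 3, against 57.4, 55.1 and 47.9 FPKM in -Dox replicates 1, 2 and 3 (log2 0.42, SE 0.10, limma adjusted p = 0.0376). The groups were apart, with +Dox replicate 2 lying nearest to the -Dox libraries. EIF4E, the main cap-binding protein, was at 46.2, 44.3 and 50.5 FPKM in +Dox replicates 1, 2 and 3, against 38.9, 37.7 and 41.6 FPKM in -Dox replicates 1, 2 and 3. It did not pass the test (log2 0.25, adjusted p = 0.0922), and its processed pseudogene EIF4EP2 was listed at 317% of its level, so reads may be split between them. The ratio of EIF4E to EIF4E2 had overlapping groups (exact permutation p = 0.3, two-sided, n = 3 each).

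Each of these 3 eIF4 calls was lost in most of the fits without 1 library. Calls over all tested genes also became fewer in those fits, at 85 to 403 higher and 157 to 597 lower. With all 6 libraries, 534 were higher and 691 lower. The EIF4G1 call was lost without +Dox replicate 2 (limma adjusted p = 0.0833) and without -Dox replicates 1, 2 and 3 (0.0662, 0.12 and 0.102). EIF4G2 kept its call only without +Dox replicate 3 (0.017), and its adjusted p was 0.0516 to 0.0896 when any other library was left out. EIF4E2 kept its call only without +Dox replicate 2 (0.0397), with 0.0621 to 0.104 in the others. The estimates kept their sign in all 6 such fits for each of these 3 genes. Plain empirical Bayes also ended the calls of EIF4G1, EIF4E2 and EIF1.

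EIF4A1, the main RNA helicase of the cap complex, and EIF4A2, its close relative, did not pass the test. EIF4A1 was at 598, 601 and 660 FPKM in +Dox replicates 1, 2 and 3, against 568, 545 and 549 FPKM in -Dox replicates 1, 2 and 3, while EIF4A2 averaged 332 ± 17.3 FPKM in +Dox and 342 ± 10.7 FPKM in -Dox libraries (limma adjusted p = 0.196 and 0.772). The ratio of EIF4A1 to EIF4A2, which library scaling cannot alter, was 1.82, 1.90 and 1.88 in +Dox replicates 1, 2 and 3, against 1.72, 1.58 and 1.56 in -Dox replicates 1, 2 and 3. Its groups were separate (log2 difference 0.20, exact permutation p = 0.1, two-sided, the smallest possible, and 0.25 after adjustment over 5 ratios). The ratio of EIF4G1 to EIF4G3, a low-level relative, was 9.27, 9.71 and 12.8 in +Dox replicates 1, 2 and 3, against 8.49, 8.32 and 8.17 in -Dox replicates 1, 2 and 3, with the same exact permutation p values. Of the helicase cofactors, EIF4B was lower in all 3 +Dox libraries (214 ± 3.19 FPKM against 240 ± 5.79 FPKM in -Dox libraries) and EIF4H higher (193 ± 4.70 FPKM against 171 ± 5.86 FPKM), each SD with n = 3, and neither passed the test (limma adjusted p = 0.163 and 0.152). The processed pseudogene EIF4HP1 was listed at 75.0% of the level of EIF4H, and EIF4BP6 at 32.4% of that of EIF4B. Reads may be split between these genes and their copies.

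The 4E-BPs bind eIF4E and keep it from the scaffold until the growth-controlled kinase mTORC1 phosphorylates them. EIF4EBP2 fell, and was the 1 member of the 45 to do so. It was at 19.0, 19.6 and 18.2 FPKM in +Dox replicates 1, 2 and 3, against 24.6, 25.4 and 25.7 FPKM in -Dox replicates 1, 2 and 3. The spread within each group was small beside the gap (log2 -0.40, SE 0.08, limma adjusted p = 0.0203). The call was lost without +Dox replicates 1 and 2 (0.0556 and 0.0573) and without -Dox replicate 2 (0.095). EIF4EBP1, the better-known relative, was more abundant and more scattered, at 48.9, 50.5 and 66.0 FPKM in +Dox replicates 1, 2 and 3, against 69.4, 59.1 and 45.5 FPKM in -Dox replicates 1, 2 and 3 (adjusted p = 0.833). The 2 genes summed to 1.47, 1.58 and 1.67 times EIF4E in +Dox replicates 1, 2 and 3, against 2.41, 2.24 and 1.71 times in -Dox replicates 1, 2 and 3. That sum was computed after the values were seen and is given as a description, and its groups came closest at replicate 3. The pseudogene EIF4EP2 was listed at 317% of the level of EIF4E, so the size of these ratios is uncertain.

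Of the factors for start codon choice and joining of the ribosomal subunits, EIF1 rose. EIF1 guards the choice of start codon and was among the most abundant of the 45 genes. It was at 556, 581 and 678 FPKM in +Dox replicates 1, 2 and 3, against 454, 478 and 474 FPKM in -Dox replicates 1, 2 and 3. The groups were separate, with +Dox replicate 3 far above its neighbours (log2 0.36, SE 0.09, limma adjusted p = 0.0384). The call was lost without +Dox replicate 2 (0.0836) and without -Dox replicates 1, 2 and 3 (0.109, 0.125 and 0.0895), and held without +Dox replicate 3 (0.0198). EIF5, which triggers GTP hydrolysis on eIF2, averaged 167 ± 14.2 FPKM in +Dox and 138 ± 5.55 FPKM in -Dox libraries (adjusted p = 0.0766), and EIF6, which keeps the large subunit from joining early, averaged 90.6 ± 14.3 FPKM in +Dox and 73.0 ± 5.57 FPKM in -Dox libraries (adjusted p = 0.124). Both had separate groups and did not pass. EIF5B, the joining GTPase, and EIF1AX had overlapping groups, and the processed pseudogene EIF1AXP1 was listed at 567% of the level of EIF1AX.

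EIF5A and EEF2K act mainly on elongation, and neither passed the test. EIF5A, a hypusine-carrying factor that helps stalled ribosomes, was at 581, 597 and 708 FPKM in +Dox replicates 1, 2 and 3, against 551, 491 and 473 FPKM in -Dox replicates 1, 2 and 3. EEF2K, the kinase that inactivates elongation factor eEF2, was at 4.82, 4.12 and 3.99 FPKM in +Dox replicates 1, 2 and 3, against 5.58, 5.31 and 6.16 FPKM in -Dox replicates 1, 2 and 3. EIF5A was higher and EEF2K lower in every +Dox library (log2 0.31 and -0.33, limma adjusted p = 0.0801 and 0.0847).

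**Figure D4:**
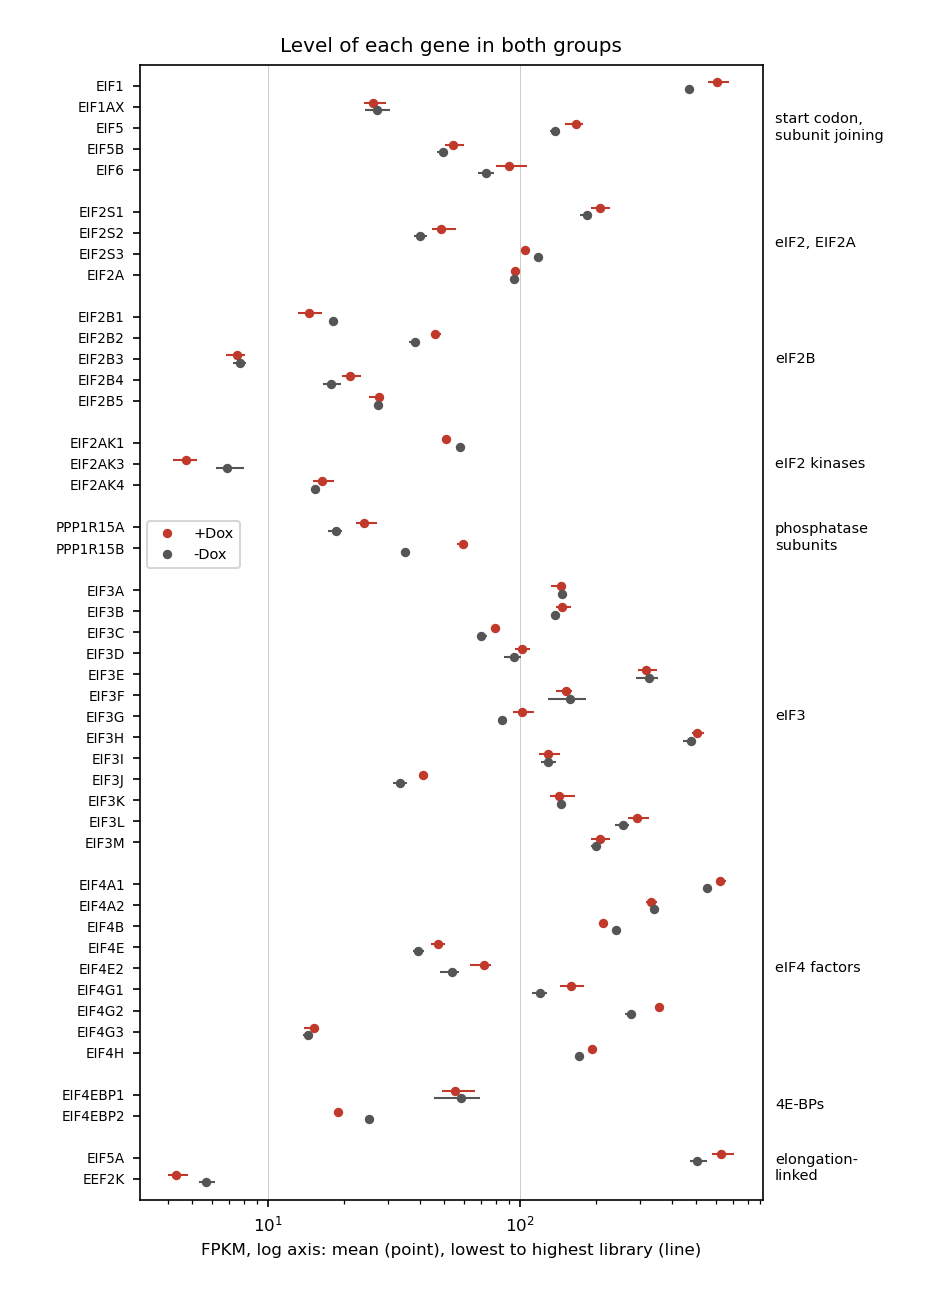
FPKM of the 45 genes on a log axis, with points for the mean of each group and lines from the lowest to the highest library, +Dox in red above -Dox in grey. Levels span from EEF2K at 4.31 FPKM to EIF5A at 629 FPKM in +Dox libraries, a 146-fold range, while the groups of most genes lie close together.

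Levels within the machinery were far more uneven than the changes. In +Dox libraries the 45 means spanned a 146-fold range, and the largest change between the groups was 1.70-fold. EIF4A1, EIF5A, EIF1 and EIF3H were the 4 highest, and EEF2K, EIF2AK3, EIF2B3 and EIF4G3 the 4 lowest by the mean over all libraries. Pseudogenes or close relatives, matched by symbol, reached at least 10% of the member's level for 11 of the 45 genes. Of the 6 genes that passed the test, EIF1 was among them, through its close relative EIF1B at 10.5% of its level (61.7 ± 5.79 FPKM in +Dox and 51.5 ± 4.78 FPKM in -Dox libraries, SD, n = 3 each, limma adjusted p = 0.127), so reads may be split between EIF1 and EIF1B. One of these copies, EIF2S2P4, passed the test itself (81.7 ± 8.17 FPKM in +Dox and 62.9 ± 2.90 FPKM in -Dox libraries, SD, n = 3 each, log2 0.37, limma adjusted p = 0.0365), so the level of EIF2S2 given above is uncertain. No source used here gives the strand setting of the counting, so reads of overlapping genes cannot be separated either. CTR9, which overlaps EIF4G2, averaged 41.2 FPKM in +Dox and 38.9 FPKM in -Dox libraries.

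Around the core factors, 22 further initiation-related genes were tested, of which 1 rose (4.55%) and 2 fell (9.09%), against 3.69% and 4.77% of all tested genes. PAIP2B, which restrains the poly(A)-binding protein, fell to 2.58, 2.52 and 2.37 FPKM in +Dox replicates 1, 2 and 3, against 4.41, 4.75 and 4.63 FPKM in -Dox replicates 1, 2 and 3 (log2 -0.68, limma adjusted p = 0.00704). PDCD4, an inhibitor of the eIF4A helicase, fell to 29.3, 26.1 and 28.6 FPKM in +Dox replicates 1, 2 and 3, against 36.0, 36.9 and 39.3 FPKM in -Dox replicates 1, 2 and 3 (log2 -0.41, adjusted p = 0.0215). DENR, which acts in ribosome recycling and reinitiation, rose to 48.0 ± 1.98 FPKM in +Dox libraries, against 38.9 ± 1.69 FPKM in -Dox libraries (SD, n = 3 each, log2 0.29, adjusted p = 0.0473). The median log2 change of the 22 genes was 0.04, near that of all tested genes.

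Of 13 further genes of eIF2 kinase and phosphatase control, the kinase gene EIF2AK2 among them, 2 rose (15.4%) and 0 fell. The shares over all tested genes were 3.69% higher and 4.77% lower. The 2 were HSPA5, the endoplasmic reticulum chaperone that holds PERK inactive (log2 0.66), and ABCF1, an eIF2-binding ATPase, at 30.2, 33.6 and 34.5 FPKM in +Dox replicates 1, 2 and 3 against 26.1, 25.3 and 23.6 FPKM in -Dox replicates 1, 2 and 3 (log2 0.37, limma adjusted p = 0.031). Among 12 tested mRNAs with known upstream open reading frames or ATF4 control, 7 rose (58.3%) and 0 fell, against shares over all tested genes of 3.69% higher and 4.77% lower, with a median log2 change of 0.41. This list shares PPP1R15A and PPP1R15B with the 45 genes and was written with the rise of ATF4 targets in these samples already known, so its count is no independent evidence. Its 4 smallest p-values belonged to PPP1R15B, CHAC1 (log2 1.31), DDIT3 (log2 1.05) and TRIB3 (log2 0.74), so PPP1R15B changed by about as much as TRIB3. ATF5, another mRNA of that kind, was at 9.84, 10.4 and 13.8 FPKM in +Dox replicates 1, 2 and 3, against 14.3, 14.8 and 12.3 FPKM in -Dox replicates 1, 2 and 3, with overlapping groups.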

How the data were processed

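RNA sequencing of total RNA from 6 libraries was analysed, 3 with and 3 without doxycycline. The deposited table gives 1 value per gene and library, treated as FPKM because the values are not whole and library totals are unequal, since the header names no unit. Per the submitters' processing notes, the tools (no roles given) were kallisto, RSEM, Cufflinks, STAR, BWA and Bowtie, and the build was hg19. The program that made the FPKM values deposited by the authors is not given. The loci were those of GRCh38: of 39331 versioned identifiers found in GENCODE 29, 39321 matched with starts counted from 0, and coordinates are given from 1. FPKM scaling makes each value depend on the other genes of its library.

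Depth was estimated from 7307 single-exon genes longer than 600 bases, whose low values were whole multiples of 1 fragment over the length less 260 to 280 bases (83.9% to 86.1% of values within 0.1 of a whole number). At that depth 3 fragments over an effective 1 kb are 0.137 to 0.176 FPKM, which covers counting error only.

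Genes reaching 1 FPKM in 3 or more libraries were tested with limma 3.58.1 in R 4.3.3 (trended, robust empirical Bayes, group as the only term) on log2(FPKM + 1), a fit tested on simulated data. Ratios of related genes were compared by exact permutation. Same-numbered libraries did not deviate together, so numbers were not used as pairs. The members, lists and tests were chosen with earlier results of these data known. Values in every library are given for members past the threshold, the eIF2 kinases, phosphatase subunits and eIF2 subunits, and the 2 smallest p-values of each role group without a call. EIF4E, EIF4A1, EIF4EBP1 and ATF5 were added after their values were seen. From each further list up to 4 genes past the threshold are named, or 1 where none passed.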

Additional observations from a re-analysis of the deposited data

How the results depend on the processing

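PPP1R15B and CAPG kept their direction and their call in all 16 alternatives, with log2 changes of 0.70 to 0.79 for PPP1R15B. The counts depended on the fit. As reported, limma called 5 members higher and 1 lower, and 534 genes higher and 691 lower. With no filter on low values 1 member was higher and 0 lower (53 and 100 genes). A filter of 5 FPKM called 7 members higher and 2 lower (633 and 639 of 10085 genes). Of those 2, EIF2AK3 met this filter only with the -Dox libraries, where it was higher. Equal totals called 6 members higher and 2 lower (458 and 890 genes). Plain empirical Bayes called 2 members and 354 genes higher. Correction for length and GC content called 14 members higher and 3 lower (1421 and 1164 genes), so that 55% of all calls were higher against 43.6% without it. Leaving out 1 library gave 1 to 5 members higher and 0 to 2 lower, and 85 to 403 genes higher and 157 to 597 lower. With the replicate block 1 member was higher and 0 lower (69 and 142 genes), and with block and correction together 10 and 2 (959 genes higher). Same-numbered libraries had correlations of -0.043, 0.009 and -0.023 between their deviations, against -0.086 to 0.102 for differently numbered libraries. These values give no sign of pairing by number and cannot exclude it. In all, 13 further members were called in at least 1 alternative, among them PPP1R15A in 4, EIF2AK3 in 3, EIF2B1 in 3 and EIF3J in 2. No member symbol repeated, so summing rows changed nothing. The cause of these differences was not tested.

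Signs turned only for genes near 0. EIF2A was at -0.04 and EIF2B5 at -0.05 with equal totals, and EIF2A and EIF3A were at 0 to 2 decimals after length and GC correction, with and without the block. Over the fits without 1 library the log2 change ran from -0.15 to 0.03 (EIF1AX), 0 to 0.04 (EIF2A), -0.09 to 0.02 (EIF2B3), -0.02 to 0.07 (EIF2B5), -0.06 to 0.03 (EIF3A), -0.13 to 0.02 (EIF3E), -0.18 to 0.07 (EIF3F), -0.09 to 0.04 (EIF3I), -0.14 to 0.02 (EIF3K), -0.01 to 0.11 (EIF3M) and -0.22 to 0.07 (EIF4EBP1). The 5 ratios of related genes kept their sign in every alternative run on them. -Dox replicate 3 was the shallowest library, and all members lay far above the level of 3 fragments.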

Other observations

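Of 19 elongation and termination genes tested, 0 passed the test by limma, where 8.46% of all tested genes passed. An unadjusted p under 0.05, in either direction, was reached by 5 of them (26.3%). The share over all tested genes is 13.6% higher plus 14.3% lower, so the 5 lie near it. In 6 (31.6%) the +Dox libraries all lay above the -Dox libraries, against 17% of all tested genes, and in 0 all below, against 17.5%. The median log2 change was 0.04. The smallest p belonged to PELO, which rescues stalled ribosomes, at 8.66, 10.3 and 10.7 FPKM in +Dox replicates 1, 2 and 3, against 7.32, 7.22 and 7.64 FPKM in -Dox replicates 1, 2 and 3 (limma adjusted p = 0.0548). EEF1A1, the carrier of aminoacyl transfer RNA and the most abundant of them, was at 2360, 2393 and 2673 FPKM in +Dox replicates 1, 2 and 3, against 2326, 2335 and 2279 FPKM in -Dox replicates 1, 2 and 3. EIF5A2, a relative of EIF5A, was at 11.8, 10.5 and 6.58 FPKM in +Dox replicates 1, 2 and 3, against 5.95, 5.98 and 6.02 FPKM in -Dox replicates 1, 2 and 3, so that +Dox replicate 3 lay apart from the other treated libraries. EEF1A1 and EIF5A2 were chosen after their values were seen.

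Of 13 tested genes of mTORC1 and the kinases around it, 0 rose and 1 fell (7.69%), against shares over all tested genes of 3.69% higher and 4.77% lower. DEPTOR, an inhibitor of mTOR, fell to 0.943, 1.07 and 1.14 FPKM in +Dox replicates 1, 2 and 3, against 2.49, 2.24 and 2.47 FPKM in -Dox replicates 1, 2 and 3 (log2 -0.73, limma adjusted p = 0.00931). Its +Dox values lay near the filter of 1 FPKM, which it met only with the -Dox libraries. The DEPTOR call is therefore no support.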
